A study of Mus musculus with 42 samples.

Results

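Lgr5-bright cells of the pylorus were compared with Lgr5-bright cells of the small intestine, 4 arrays against 2, out of 42 mouse Affymetrix arrays in all. The 6 arrays were chosen by their titles, which give the Lgr5-EGFP-IRES-CreERT2 line, the organ and the Lgr5Hi gate, and the 2 small intestinal arrays are all there are with that title. Both groups came from untreated, healthy adult mice of that line, at least 7 to 8 weeks old and not selected by sex. In this line an EGFP and CreERT2 cassette sits in the Lgr5 gene, so green fluorescence follows the Lgr5 promoter, and live cells were sorted by it after propidium iodide staining. The labels call the samples of a group biological replicates without giving the number of mice in each, and p-values here measure the spread between those samples. The isolation protocol in the labels describes chelation of pyloric tissue only, so how small intestinal cells were released is not given in the sources used here. The stated aim of the series was to find genes enriched in pyloric stem cells relative to other gastrointestinal populations. Values are also given from Lgr5-dim and colon arrays of the Lgr5-EGFP-IRES-CreERT2 line. Further values come from 3 pyloric Lgr5Hi arrays titled with a second genotype, Lgr5-EGFP-DTR, of mice also at least 7 to 8 weeks old.

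Lgr5 is a receptor for R-spondins, ligands that strengthen Wnt signalling, and it marks stem cells at the base of pyloric glands and of intestinal crypts. Pyloric glands renew surface pit mucous cells, deep gland mucous cells and the hormone cells of the antrum, whereas small intestinal crypts renew enterocytes, goblet cells, endocrine cells and Paneth cells, and crypt stem cells are wedged between Paneth cells. In development the foregut factor Sox2 and the hindgut factor Cdx2 mark the gastric and intestinal sides of the border that the pylorus forms. Gkn2, Tff2, Olfm4 and Mmp7 served as markers of the 2 sides: a gastrokine of surface mucus, a trefoil peptide of gland mucus, a crypt stem cell glycoprotein and the protease that activates Paneth cell defensins.

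Values are the authors' deposited log2 levels, taken from the probe set with the highest mean for each of 22180 genes. Differences are pylorus minus small intestine, with the standard error from a limma fit over the 18 sorted arrays of this line (6 organ and gate groups), and a gene was called at a Benjamini-Hochberg adjusted p under 0.05 over all 22180 genes. The median level over all probe sets of an array was 3.88 to 4.10 in the 6 arrays, and no detection calls were used. A level near or below that median is not evidence of expression, so a difference from such a group is a lower bound. Because these are sorted populations measured in bulk, fewer cells of a type and less RNA per cell cannot be told apart.

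Several arrays stood apart within their group. Pyloric array 4 carried the most Paneth cell transcript among the pyloric arrays, pyloric array 3 the most goblet cell transcript, pyloric array 1 the most tuft cell transcript, and small intestinal array 2 more enterocyte and immune transcript than small intestinal array 1. Mean levels of the 11 Paneth genes were 4.15, 4.67, 4.98 and 6.89 in pyloric arrays 1 to 4 and 11.05 and 11.29 in the small intestinal arrays. For 28 enterocyte genes they were 5.09, 4.83, 5.18 and 5.40 against 6.34 and 7.99. For 14 immune cell genes they were 3.55, 3.64, 3.73 and 3.39 against 3.87 and 4.76. The part of these transcripts in the organ differences was not tested. Over all genes, Pearson's r was 0.942 to 0.970 among the pyloric arrays, 0.976 between the small intestinal arrays and 0.889 to 0.914 across organs, as a description.

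**Figure D1:**
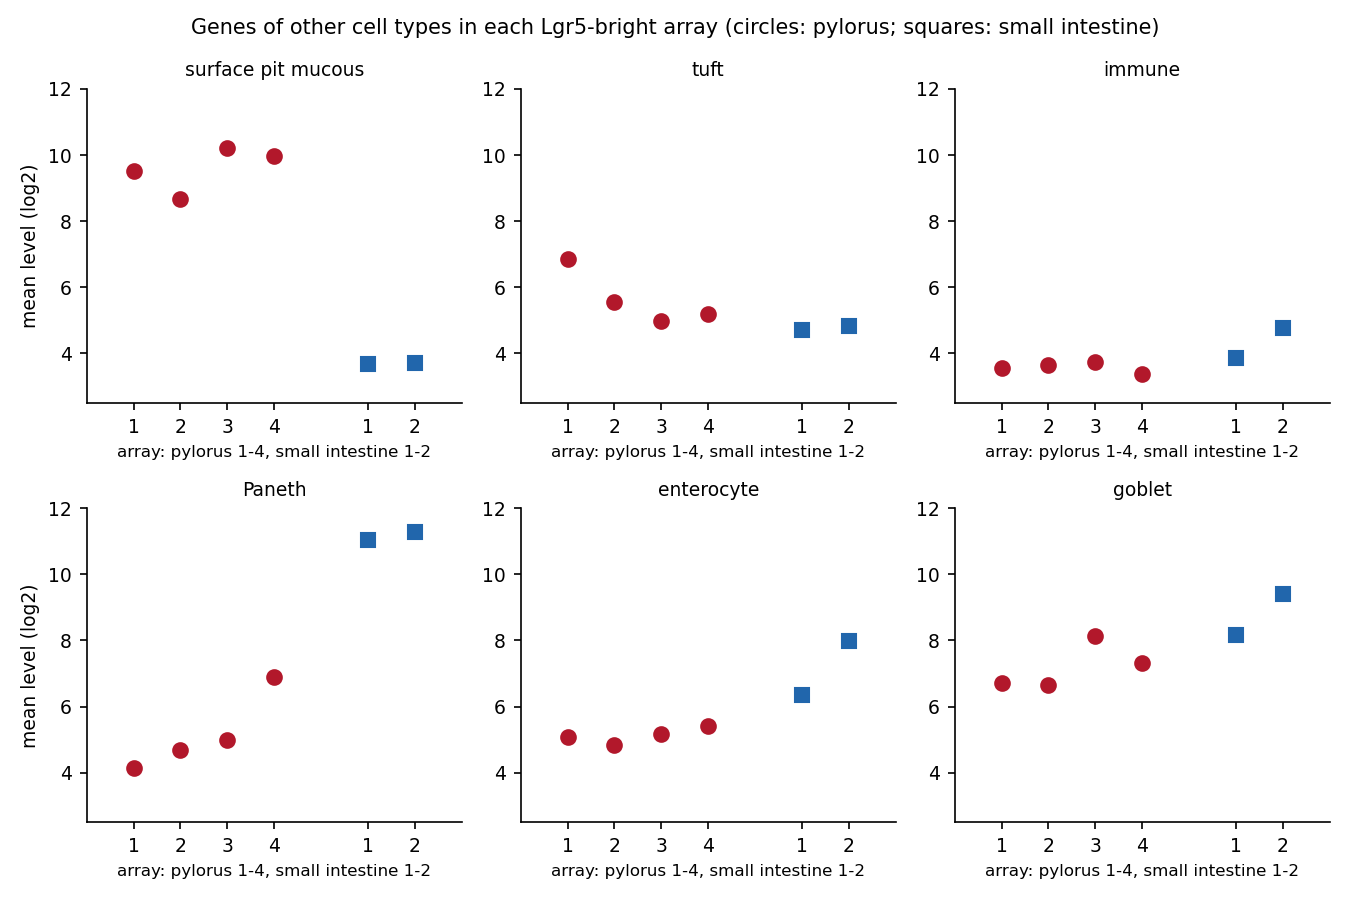
Mean log2 level of 6 cell type gene lists in each Lgr5-bright array (y axis), with pyloric arrays 1 to 4 as circles and small intestinal arrays 1 and 2 as squares. Paneth genes reach 6.89 in pyloric array 4 against 4.15 to 4.98 in the other pyloric arrays, and enterocyte genes reach 7.99 in small intestinal array 2 against 6.34 in array 1.

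The promoters of 6 genes with large differences are shown first, since they are the sequences at which gastric and intestinal regulators could be read: both gastrokines, which were high in the pylorus, and Olfm4, Mmp7, Mptx2 and Defa22, which were high in the small intestine. Each is the 250 bases before the transcription start in RefSeq's GRCm38.p6 annotation, on the strand named. Capitals mark matches on either strand to 4 motifs: TTTATNG for Cdx factors, CAAAGTCCA for Hnf4, AGATAA for Gata and CATTGT for Sox factors. The reverse of the Cdx motif, CNATAAA, can overlap the TATA box letters TATAAA.
Gkn2, chr6:87373115-87373364, plus strand: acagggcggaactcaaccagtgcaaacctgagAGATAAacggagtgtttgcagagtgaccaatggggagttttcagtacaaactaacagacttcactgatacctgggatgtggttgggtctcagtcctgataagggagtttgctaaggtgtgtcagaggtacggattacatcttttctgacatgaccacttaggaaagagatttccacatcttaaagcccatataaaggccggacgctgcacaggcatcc
Gkn1, chr6:87350916-87351165, minus strand: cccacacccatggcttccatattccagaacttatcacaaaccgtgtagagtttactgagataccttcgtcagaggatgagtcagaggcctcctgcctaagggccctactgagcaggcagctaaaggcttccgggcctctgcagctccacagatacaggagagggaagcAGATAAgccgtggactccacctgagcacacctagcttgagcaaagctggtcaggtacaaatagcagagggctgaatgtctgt
Olfm4, chr14:80000052-80000301, plus strand: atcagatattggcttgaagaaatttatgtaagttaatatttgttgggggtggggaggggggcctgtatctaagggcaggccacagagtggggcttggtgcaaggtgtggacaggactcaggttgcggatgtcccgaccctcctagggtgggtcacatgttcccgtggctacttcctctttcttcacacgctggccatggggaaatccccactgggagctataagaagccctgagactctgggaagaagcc
Mmp7, chr9:7691840-7692089, plus strand: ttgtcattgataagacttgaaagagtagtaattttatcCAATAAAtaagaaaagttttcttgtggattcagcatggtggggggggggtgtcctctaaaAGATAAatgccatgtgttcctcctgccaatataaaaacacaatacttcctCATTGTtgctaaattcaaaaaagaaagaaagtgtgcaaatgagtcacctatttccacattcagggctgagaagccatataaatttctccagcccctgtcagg
Mptx2, chr1:173277757-173278006, minus strand: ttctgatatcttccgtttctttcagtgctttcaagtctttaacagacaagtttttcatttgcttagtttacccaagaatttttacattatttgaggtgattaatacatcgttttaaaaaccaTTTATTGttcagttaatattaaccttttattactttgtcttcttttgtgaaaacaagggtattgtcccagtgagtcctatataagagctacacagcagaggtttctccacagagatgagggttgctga
Defa22, chr8:21162027-21162276, plus strand: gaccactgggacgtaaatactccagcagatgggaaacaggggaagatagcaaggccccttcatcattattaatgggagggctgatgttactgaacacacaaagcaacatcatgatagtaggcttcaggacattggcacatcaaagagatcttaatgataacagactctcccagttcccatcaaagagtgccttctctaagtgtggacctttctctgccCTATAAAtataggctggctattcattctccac

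A match to the Cdx letters lay in the Mmp7, Mptx2 and Defa22 windows and in none of the Gkn1, Gkn2 and Olfm4 windows. In Defa22 it lay 32 to 26 bases before the start and held the letters TATAAA. In Mmp7 it lay 212 to 206 bases before the start, with a Gata match at 152 to 147 and a Sox match at 102 to 97. The 6 windows shown are examples only. Among the 15 largest falls with a promoter entry, Defa21 also held the Cdx letters, while Ang4, Lyz1, Prap1, Reg4 and Clca4b did not. Among the 15 largest rises with an entry, only Chad held them. Of 27025 promoters of the same length, 10.2% held the Cdx letters, 0.381% the Hnf4 letters, 10.3% the Gata letters and 11% the Sox letters. Among called genes at least 8-fold higher in pyloric bright cells, 77 of 108 had a promoter entry, and 6.49% of those held the Cdx letters, 11.7% the Gata letters and 6.49% the Sox letters, with no Hnf4 match. Of the 102 of 129 genes at least 8-fold lower, 17.6% held the Cdx letters, 1.96% the Hnf4 letters, 16.7% the Gata letters and 9.8% the Sox letters. These shares are descriptions of letters in a window, not of bound sites.

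Lgr5, whose reporter set the gate, did not differ detectably between the organs, whereas stomach and crypt products differed widely. Lgr5 read 8.79, 8.08, 8.14 and 9.12 in pyloric arrays 1 to 4 and 8.32 and 8.37 in the small intestinal arrays. The groups overlapped, and the difference of 0.19 ± 0.40 was not called (adjusted p = 0.826, limma). Aqp5, a water channel that the series title names as a marker of pyloric stem cells, read 9.81, 10.34, 9.14 and 10.65 against 4.08 and 4.59. All 4 pyloric arrays lay above both others, and the difference was 5.65 ± 0.41, or at least 50.2-fold (adjusted p = 7.78e-09, limma).

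Each of the 4 markers separated the arrays by organ. Gkn2 read 12.16, 11.52, 12.54 and 12.36 in the pylorus and 3.24 and 3.84 in the small intestine, a difference of 8.61 ± 0.30 (at least 390-fold, adjusted p = 8.51e-14, limma) and the largest rise of any gene. Tff2 read 12.91, 13.01, 12.88 and 13.00 against 5.56 and 4.27, a difference of 8.03 ± 0.55. Olfm4 ran the other way, at 4.82, 4.26, 3.83 and 5.45 against 11.24 and 11.42, a difference of -6.74 ± 0.55 (at least 107-fold lower). Mmp7 read 4.22, 3.65, 4.32 and 3.73 against 10.94 and 11.05, a difference of -7.02 ± 0.46. That value rests on the brighter of its probe sets, since the dimmest gave -0.24 (adjusted p = 0.645, limma). No pyloric array overlapped a small intestinal array in any of these 4 genes.

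**Figure D2:**
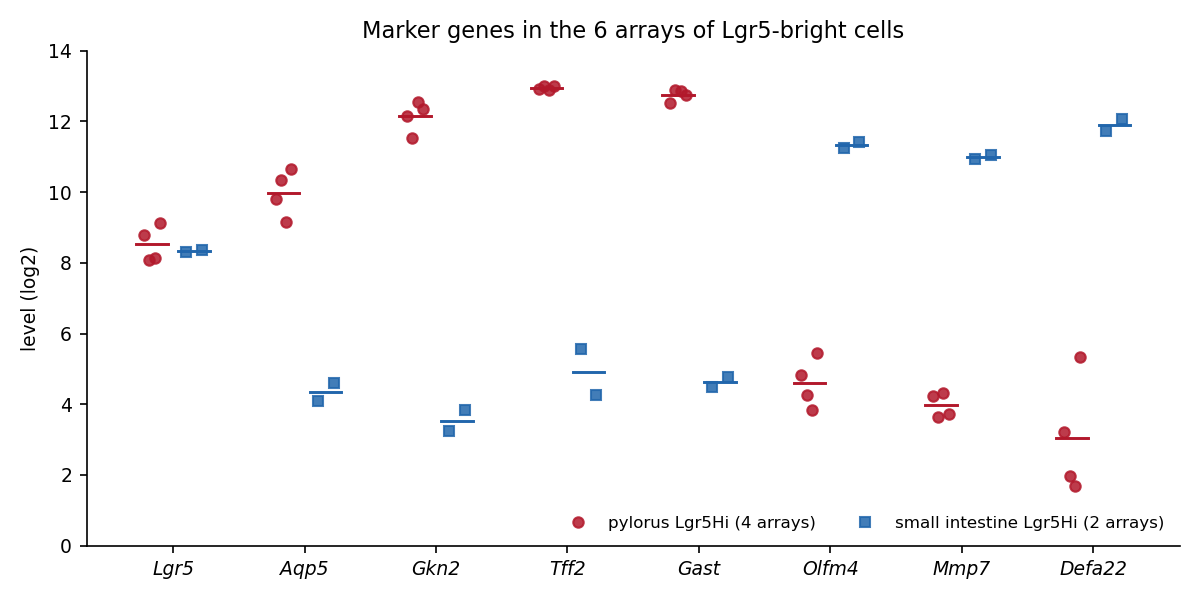
Log2 level (y axis) of 8 genes in the 4 pyloric arrays (circles) and 2 small intestinal arrays (squares) of Lgr5-bright cells, with lines at the group means. Lgr5 overlaps between organs at 8.08 to 9.12, while the other 7 genes do not overlap, Gkn2 lying at 11.52 to 12.54 against 3.24 and 3.84.

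Over all genes, 2692 of 22180 (12.1%) were called, 1020 higher in the pylorus (4.6%) and 1672 lower (7.54%). These all-gene shares are the background for the list counts below. The excess of lower genes varied with normalization. Fold changes of 2 or more were reached by 785 called genes upward (3.54%) and 1387 downward (6.25%), and of 32 or more by 34 and 31. The groups did not overlap in 34.4% of all genes, with the pylorus higher in 17.5% and lower in 16.9%, so separation of the arrays alone was common. The median difference of all genes was 0.08. The number of called genes fell to 1168 without small intestinal array 1 and to 1483 without small intestinal array 2, and the array that then stands alone is assumed to vary like the other groups.

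The 15 largest rises were dominated by secreted stomach products. Behind Gkn2 came the gland mucin Muc6 (8.41 ± 0.34), the gastrokine Gkn1 (8.27 ± 0.34), gastrin (Gast, 8.13 ± 0.23) and Tff2, followed by the aspartic protease cathepsin E (Ctse, 7.66 ± 0.28), the surface trefoil peptide Tff1 (7.56 ± 0.24) and the secreted phospholipase Pla2g1b (7.55 ± 0.28). Cblif, the gastric intrinsic factor that binds vitamin B12, read 12.29, 12.16, 11.82 and 12.26 against 4.86 and 5.03, a difference of 7.18 ± 0.32. The remaining 6 were the surface protein Psca (7.10), the leucine-rich matrix protein Chad (7.07), Mucl3 (7.05), the membrane mucin Muc1 (6.92), A4gnt (6.38) and the G protein regulator Rgs5 (6.38). They were picked as the largest called differences whose groups do not overlap, so the separation of the arrays is no result in them. Their order is approximate, since many small intestinal levels sit near the array median.

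Alpha-defensins and other Paneth cell genes made up 9 of the 15 largest falls. The defensins supplied 5 of them, Defa22 (-8.84 ± 1.04), Defa21 (-8.48 ± 1.19), Defa26 (-7.21 ± 1.05), Defa33 (-6.90 ± 0.80) and Defa39 (-6.52 ± 1.67). The other Paneth genes were Mptx2, a pentraxin (-8.33 ± 0.78), the microbicidal ribonuclease Ang4 (-7.20 ± 0.54), Mmp7 and lysozyme (Lyz1, -6.64 ± 1.20). In colon bright cells Ang4 averaged 10.63, while Defa22, Mptx2 and Lyz1 averaged 2.91, 3.44 and 5.39. Cps1, the mitochondrial enzyme that starts the urea cycle, read 4.20, 3.88, 4.60 and 5.38 in the pylorus and 11.25 and 11.61 in the small intestine, a difference of -6.91 ± 0.48. Olfm4, the acidic protein gene Prap1 (-6.58), the lectin Reg4 (-6.41), Clca4b (-6.40) and the tetraspanin-like Tm4sf20 (-6.01) completed them. Defa39 lost its call without small intestinal array 1 (-6.55, adjusted p = 0.111, limma) and without array 2 (-6.50, adjusted p = 0.0946, limma).

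The called factors of foregut and stomach were higher in pyloric bright cells, and most called intestinal factors were lower. Of 10 factors of foregut and stomach, 6 were called higher and none lower, with a median of 1.18. Sox2 read 6.70, 7.35, 3.56 and 7.03 against 2.32 and 2.09, a difference of 3.95 ± 0.68 (adjusted p = 0.000391, limma). Pyloric array 3 was about as low in Sox2 as the array median, while the other 3 lay well above it. Foxq1, a forkhead factor of foveolar mucin expression, differed by 3.21 ± 0.30, and Nkx6-3, a homeobox factor of antral glands, by 3.23 ± 0.35. Pdx1, the homeobox factor of antrum, duodenum and pancreas, read 6.58, 6.67, 6.53 and 6.57 against 5.26 and 5.33, a difference of 1.30 ± 0.27. The count of 6 fell to 3 without small intestinal array 1, and Pdx1 stood at 1.26 (adjusted p = 0.0507, limma).

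Intestinal transcription factors were lower in 10 of 14, with a median of -2.15, and higher in 1. Cdx2 read 4.00, 4.79, 6.35 and 4.44 in the pylorus against 7.45 and 7.79, a difference of -2.72 ± 0.50. Array 3, the one with the lowest Sox2, had the highest Cdx2 of the pyloric arrays, yet it stayed below both small intestinal arrays. Larger falls were seen in the nuclear receptor Hnf4g (-3.90 ± 0.44), the retinoid-responsive homeobox factor Isx (-3.87 ± 0.37) and the vitamin D receptor Vdr (-3.58 ± 0.41). Hnf4a, its paralogue that the stomach also expresses, read 6.49, 6.49, 6.82 and 7.02 against 8.28 and 8.67, a smaller difference of -1.77 ± 0.31. The bile acid receptor Nr1h4 (-2.04), the xenobiotic receptor Nr1i2 (-2.26) and Onecut2 (-2.37) also fell. Gata5 alone was higher, at 1.29 ± 0.34, and lost that call without small intestinal array 1 (adjusted p = 0.158, limma) and without array 2 (adjusted p = 0.0817, limma). With only the 6 bright arrays in the fit Gata5 was not called either (adjusted p = 0.0588, limma). The same held with all 25 arrays of the line (adjusted p = 0.0718, limma). The 3 factors not called, picked out after their values were seen, were Gata4 (0.51), Gata6 (-0.10) and Prdm1 (0.28).

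Of 31 Hox genes, which pattern the trunk along its length, 0 were called by limma and 2 had an unadjusted p under 0.05, and their differences ran from -0.21 to 0.70 around a median of 0.27. Groups did not overlap in 8 of them, all with the pylorus higher. Over all genes 34.4% did not overlap, 17.5% with the pylorus higher, so such separation was common. The mean level of the Hox genes was 3.53 to 3.77 in the pyloric arrays and 3.36 and 3.40 in the small intestinal arrays, below the array medians throughout.

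Surface pit mucous genes had the highest median of the 41 lists described, 6.92, with 11 of 13 called higher and none lower. Muc5ac, the mucin of surface mucus, read 10.00, 8.16, 11.13 and 10.70 against 4.27 and 3.47, a difference of 6.13 ± 0.51. Psca read 10.83, 9.40, 11.24 and 11.32 against 4.30 and 2.89, and Mucl3 10.08, 9.14, 11.88 and 10.87 against 3.61 and 3.29. Pyloric array 2 was the lowest pyloric array in each of these 3 genes. The mean level of the list was 9.51, 8.67, 10.20 and 9.97 in the pylorus against 3.68 and 3.70. In Lgr5-bright pyloric cells of the second reporter line, titled DTR, whose mouse model field names the first line, the same mean was 6.98, 7.58 and 7.65, and Muc5ac stood at 4.70, 6.19 and 6.42. In Lgr5-dim pyloric cells of the first line it was 10.27 to 10.68. Lgr5 stood at 8.65 to 8.81 in the DTR arrays, within the range of the first line's bright arrays. The source of pit mucous transcript in the bright gate was not tested.

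Gland mucous genes were higher in 9 of 10, none lower, with a median of 3.46. Muc6, the gland mucin, read 12.04, 12.44, 11.66 and 12.44 against 4.21 and 3.26. A4gnt, the enzyme that caps gland mucin with alpha-linked N-acetylglucosamine, read 9.90, 10.61, 10.14 and 10.72 against 3.70 and 4.22, a difference of 6.38 ± 0.60. Gkn3 was also well above the array median in the small intestine: it read 12.59, 12.77, 12.50 and 12.63 against 10.23 and 9.52, a difference of 2.75 ± 0.33 or 6.73-fold. Of the 5 transcription factors on the list, 4 rose, Creb3l1 by 3.77 ± 0.42, Creb3l4 by 3.16 ± 0.32, Spdef by 2.21 ± 0.28 and Xbp1 by 1.91 ± 0.28, while Bhlha15 differed by 0.86 ± 0.38 and was not called. Atoh1, a secretory lineage factor counted with the Notch pathway, was lower (-1.80 ± 0.38), but lost its call without small intestinal array 2 (-1.14, adjusted p = 0.153, limma). The list mean was 9.98, 10.20, 9.57 and 10.33 in these pyloric arrays and 10.38, 10.38 and 10.39 in the DTR arrays.

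Chief and parietal cell genes were called higher in 6 of 11 and lower in 1, with a median of 3.86. Pgc, the pepsinogen that pyloric glands share with chief cells, read 13.31, 13.27, 13.07 and 13.35 against 7.05 and 7.09, a difference of 6.18 ± 0.30. Pga5, a pepsinogen of chief cells, read 9.49, 9.40, 7.58 and 9.36 against 4.28 and 3.46. The 2 subunits of the gastric proton pump, which define parietal cells, were also higher, Atp4a at 8.29, 7.99, 9.64 and 9.04 against 5.01 and 4.75, and Atp4b by 5.20 ± 0.40. In the DTR arrays Atp4a was lower, at 5.41, 6.91 and 5.61, whereas Pgc stood at 13.34 to 13.40. The gene called lower, Esrrg, a nuclear receptor of parietal cells, overlapped between groups, and its -1.59 lost the call without small intestinal array 1 (adjusted p = 0.0531, limma) and without array 2 (adjusted p = 0.378, limma), as it did without pyloric array 1 (adjusted p = 0.0928, limma) or array 2 (adjusted p = 0.0808, limma).

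The trefoil genes, which lie side by side on a chromosome, were called in both directions, while the called gastrokines were all higher and the called Clca genes all lower. On chromosome 17 the trefoil genes Tff3, Tff2 and Tff1 follow each other with no gene between them in RefSeq's order, and their differences were -3.87, 8.03 and 7.56. Tff3, the goblet cell trefoil, read 5.74, 5.65, 8.73 and 7.49 against 10.74 and 10.81, highest among the pyloric arrays in array 3. On chromosome 7, Muc6 (8.41) is followed by the goblet mucin Muc2 (-2.24 ± 1.01, not called), Muc5ac (6.13) and Muc5b (0.47, not called). The gastrokines Gkn1, Gkn2 and Gkn3 of chromosome 6 all differed upward. In the Clca family of chromosome 3, Clca3a1 (-2.84), Clca3a2 (-5.05), Clca3b (-5.86) and Clca4b (-6.40) fell, while Clca4a (-1.0), Clca1 (-0.33) and Clca2 (0.36) were not called.

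**Figure D3:**
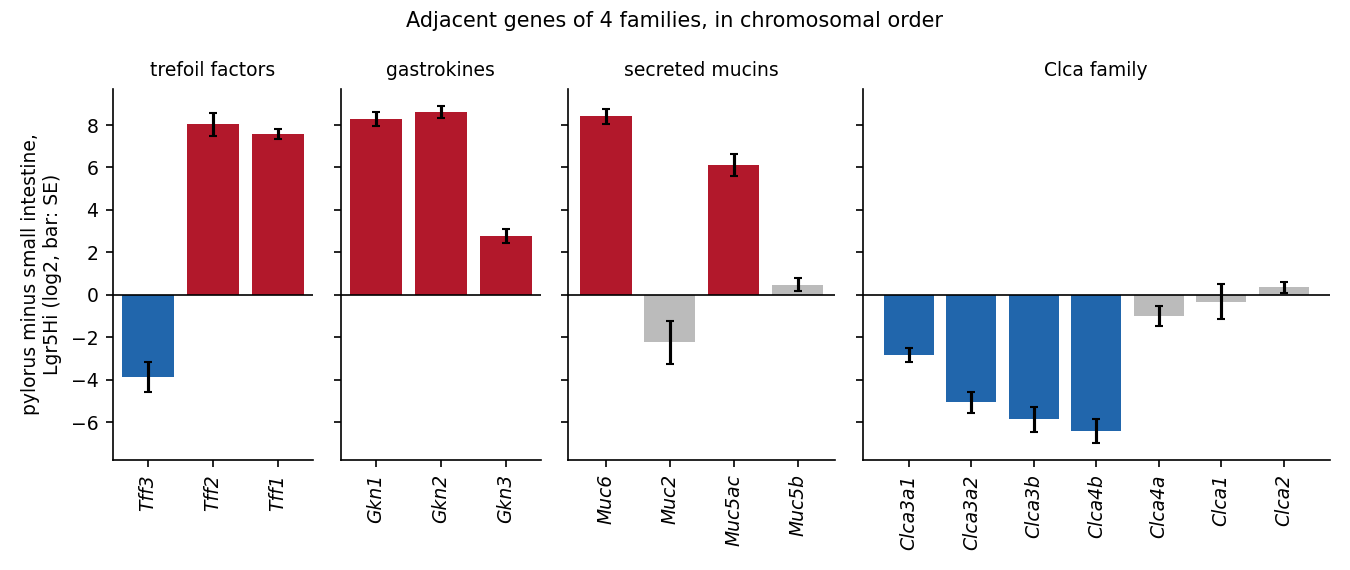
Differences between pyloric and small intestinal Lgr5-bright cells (log2, y axis; error bars are standard errors of the limma fit) for adjacent genes of 4 families in chromosomal order, with grey bars for genes not called. Tff3 falls by 3.87 beside Tff2 and Tff1, which rise by 8.03 and 7.56, and 4 of the 7 Clca genes fall.

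Crypt stem cell genes did not move as a block, although most called ones were lower in the pylorus. Of 26 genes of the intestinal stem cell list, 14 were lower and 1 higher, with a median of -1.29. After Olfm4, the largest falls were in Clca3b, at 4.67, 5.29, 7.06 and 5.87 against 11.40 and 11.78, and in the transcriptional cofactor Dach1, at 3.21, 3.40, 2.71 and 3.18 against 6.46 and 6.88 (-3.55 ± 0.31). The RNA-binding protein Msi1 read 4.70, 4.79, 4.63 and 5.12 against 6.15 and 6.56, and the BMP co-receptor Rgmb 7.19, 7.71, 6.96 and 7.66 against 8.96 and 8.88. Prom1, which encodes the membrane protein CD133, was the gene called higher, at 9.87, 10.23, 9.51 and 10.01 against 8.34 and 8.37. Ascl2, the Wnt-driven factor of crypt stem cells, differed by -0.43 ± 0.30 and Smoc2, a secreted matrix protein, by -1.28 ± 0.48, and neither was called. Smoc2 was at 6.35 in pyloric array 3 against 8.21 to 8.75 in the other pyloric arrays and 9.29 and 9.19 in the small intestine. Without pyloric array 1 its difference was -1.54 and called (adjusted p = 0.049, limma).

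Among 12 genes described in gastric stem cells, 4 were higher and 1, Axin2, was lower. Besides Aqp5, Runx1, a factor whose enhancer marks gastric stem cells, rose: it read 6.71, 6.45, 6.71 and 6.95 against 3.93 and 4.74, a difference of 2.37 ± 0.34. Sox9, a factor of gland and crypt bases, was not among the 12 but on the intestinal stem cell list. It read 9.40, 9.33, 8.46 and 9.92 against 7.99 and 8.23. Its groups did not overlap, but the difference of 1.17 ± 0.42 was not called (adjusted p = 0.0845, limma). Without pyloric array 3 it was 1.44 and called (adjusted p = 0.0259, limma). Lrig1, a brake on growth factor receptors and a stem cell marker of both organs, read 8.28, 9.21, 7.72 and 9.08 against 7.90 and 8.20 and was not called (picked out after its value was seen). The list held 3 called higher and 0 lower without small intestinal array 1 or array 2.

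Wnt target genes went both ways, 3 higher and 2 lower of 15, around a median of 0.06. Axin2, the feedback inhibitor most used as a Wnt readout, read 6.47, 5.92, 5.29 and 6.48 against 7.70 and 7.83, a difference of -1.73 ± 0.39. Nkd1, another feedback inhibitor, did the opposite at 6.43, 5.29, 4.70 and 5.78 against 3.70 and 3.46, a difference of 1.97 ± 0.36. Both were lowest in pyloric array 3 among the pyloric arrays. Myc, the growth regulator, read 6.40, 6.22, 6.57 and 6.0 against 8.10 and 8.29, a difference of -1.89 ± 0.31. The ubiquitin ligases that remove Wnt receptors, Rnf43 (-0.82) and Znrf3 (0.49), were not called. Without small intestinal array 1 the list held 1 higher and 1 lower and Axin2 stood at -1.79 (adjusted p = 0.0538, limma). Without array 2 it again held 1 and 1, with Axin2 at -1.66 (adjusted p = 0.0681, limma), and without pyloric array 3 it held 5 and 2, with Znrf3 at 0.80 (adjusted p = 0.0463, limma).

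Of 37 genes of the Wnt pathway itself, 2 were higher and 1 lower, or 8.11% called against 12.1% of all genes. The receptors Fzd4 (7.26, 6.97, 6.92 and 7.13 against 4.31 and 5.15) and Fzd3 (1.99 ± 0.40) were higher. Sfrp5, a secreted inhibitor that binds Wnt ligands, fell, at 4.13, 3.35, 3.71 and 5.31 against 6.89 and 6.78, a difference of -2.71 ± 0.45. In Lgr5-dim cells the same Sfrp5 difference was -0.21 and not called, and the difference between gates was not called either.

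Most proliferation genes measured were lower in pyloric bright cells. Of 19 G1/S genes 14 were lower, with a median of -1.25, and of 23 G2/M genes 21 were lower, with a median of -1.74, and no gene of either list was higher. The proliferation antigen Mki67 read 7.95, 7.61, 8.03 and 7.70 against 9.13 and 9.48, a difference of -1.48 ± 0.36. Cdc20, the activator of the anaphase ligase, read 6.50, 6.34, 6.41 and 6.44 against 8.48 and 8.44, a difference of -2.04 ± 0.25 or 4.12-fold. Cdk1, the mitotic kinase, read 7.63, 7.68, 8.05 and 7.02 against 9.54 and 9.13. Other called falls were the helicases Hells (-2.16 ± 0.38) and Mcm6 (-1.49 ± 0.30), the kinesin Cenpe (-2.17 ± 0.30) and Kif23 of the dividing cell's midbody (-2.31 ± 0.39). Most of these 7 genes were named for a small p in this comparison, so separation of the arrays is no result in them. Over the whole lists, every pyloric array was below both small intestinal arrays in 18 of 19 G1/S and 23 of 23 G2/M genes. The same held for 16.9% of all genes. The calls depended on both small intestinal arrays: without array 1, 5 G1/S and 16 G2/M genes stayed lower, and without array 2, 5 and 14, when Mki67 stood at -1.30 (adjusted p = 0.115, limma).

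The same lists did not separate the organs in Lgr5-dim cells, where 0 of 19 and 0 of 23 genes were called by limma against 8.02% of all genes, with medians of -0.25 and -0.37. The G2/M mean was 6.51, 6.48, 6.54 and 6.06 in pyloric bright cells, 7.45, 7.65, 6.61 and 7.74 in pyloric dim cells, 8.07 and 8.11 in small intestinal bright cells and 7.55 and 7.90 in small intestinal dim cells. Colon bright cells stood at 7.37, 7.39 and 7.97, and the 4 pyloric bright arrays were the lowest of the 18 sorted arrays of the line in this list. Pyloric dim array 3, at 6.61, was near them, as were the bright DTR arrays at 5.84, 6.70 and 6.76. The change in organ difference between gates had a median of -1.34 over the G2/M list and -1.14 over the G1/S list, but no gene of these lists was called in it, against 0.0316% of all genes, and Cdc20 had the smallest adjusted p among those described (-1.99 ± 0.35, adjusted p = 0.0511, limma).

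**Figure D4:**
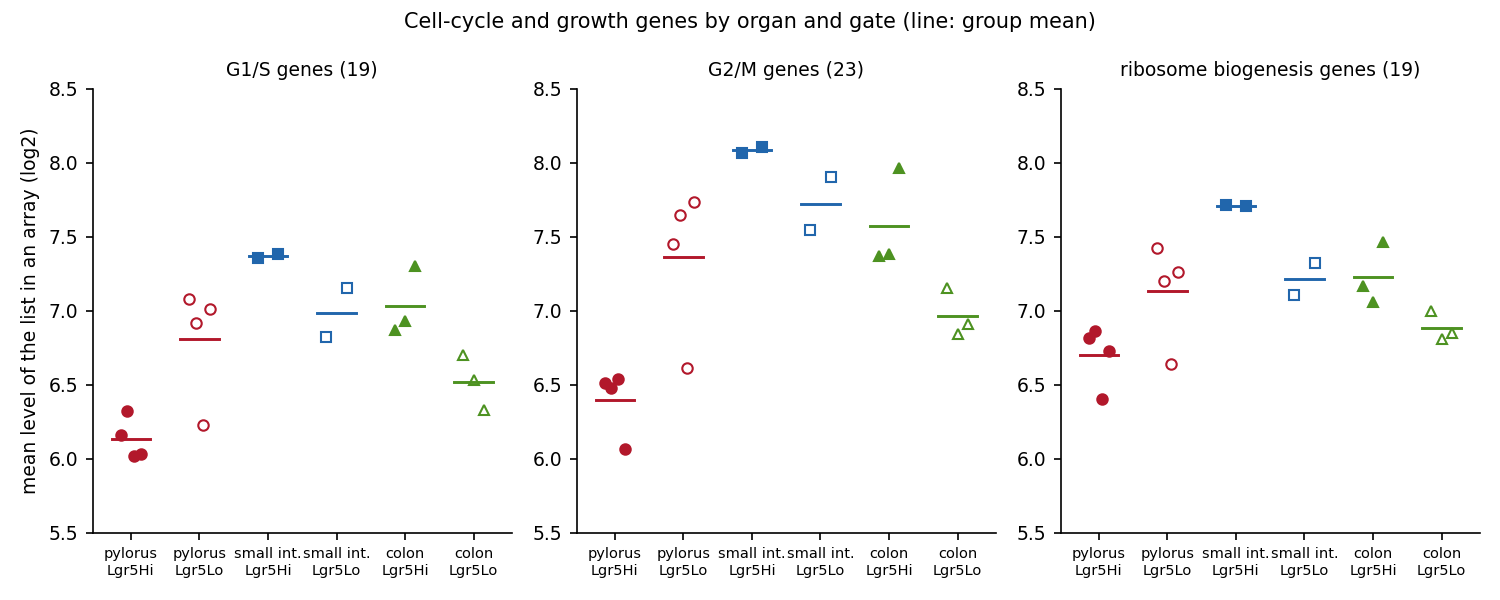
Mean log2 level (y axis) of G1/S, G2/M and ribosome biogenesis genes in each sorted array of the line by organ and gate, with filled symbols for Lgr5Hi, open symbols for Lgr5Lo and lines at the group means. Pyloric Lgr5Hi arrays lie at 6.06 to 6.54 for G2/M genes, against 8.07 and 8.11 in small intestinal Lgr5Hi arrays and 6.61 to 7.74 in pyloric Lgr5Lo arrays.

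Growth genes pointed the same way in part. Of 19 ribosome biogenesis genes 8 were lower and none higher, with a median of -1.0, among them the nucleolar GTPase Gnl3 (-1.71 ± 0.30) and the pseudouridine synthase Dkc1 (-1.36 ± 0.26). The count fell to 4 without small intestinal array 1 and to 3 without array 2. Of 18 cyclin D, CDK and Myc family genes 4 were lower and 2 higher. Of all genes, 7.54% were called lower and 4.6% higher. Cdkn1c, the CDK inhibitor p57, was higher at 5.58, 5.14, 5.04 and 5.76 against 4.07 and 3.85, a difference of 1.42 ± 0.28. Cdk4, the G1 kinase, was lower by -1.35 ± 0.33. Without small intestinal array 1 that list held 1 higher and 1 lower and Cdk4 was not called (adjusted p = 0.0882, limma), and without array 2 it held 1 and 2 (Cdk4 adjusted p = 0.083, limma).

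Paneth cell genes had the lowest median of the 41 lists, -7.02, with 9 of 11 lower and none higher. Defa22 read 3.21, 1.98, 1.68 and 5.34 against 11.72 and 12.06, and Mptx2 3.08, 3.79, 3.08 and 5.13 against 12.03 and 12.17. Lyz1 read 4.10, 6.0, 5.08 and 9.11 against 12.56 and 12.87. Pyloric array 4 was the highest pyloric array in all 3, and its Lgr5-dim partner with the same number was also the highest dim array of the pylorus in the list mean, at 7.35 against 4.29 to 5.26. Lower calls numbered 9 without either small intestinal array and 10 without pyloric array 4. In the DTR arrays the list mean was 3.78 to 3.99. The whole alpha-defensin family gave 8 of 10 lower, and probe sets of such near-identical genes can share signal, so single members are uncertain. Small intestinal dim cells carried the list at 11.09 and 11.11, about as high as bright cells, and the number of Paneth cells in either gate was not tested.

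Other intestinal lineages followed with smaller shifts. Enterocyte genes were lower in 15 of 28 and higher in none, with a median of -1.87. The intestinal cadherin Cdh17 read 2.97, 3.20, 3.27 and 3.94 against 9.02 and 9.47, a difference of -5.90 ± 0.46, and the fatty acid binding protein Fabp1 3.78, 5.75, 5.89 and 7.01 against 10.32 and 11.54. The brush border enzyme sucrase-isomaltase (Sis) read 2.82, 2.93, 2.87 and 3.28 against 4.60 and 8.84, so its -3.75 rested on small intestinal array 2, without which it was -1.63 (adjusted p = 0.141, limma). Without that array the enterocyte count was 9 and the median -0.88, and without array 1 the count was 20. Goblet cell genes were lower in 6 of 12 and higher in 2. The membrane mucin Muc13 (5.10, 5.82, 6.66 and 6.19 against 10.28 and 11.11) fell, and the disulphide isomerase Agr2 (12.60, 12.45, 12.53 and 12.55 against 11.22 and 11.31) rose. The goblet list held 3 lower without small intestinal array 2.

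Gastrin was the hormone gene with the widest rise, and several intestinal hormone genes were lower. Gast, the antral hormone that drives acid secretion, read 12.52, 12.89, 12.88 and 12.75 against 4.49 and 4.76, a difference of 8.13 ± 0.23 (adjusted p = 4.33e-15, limma). Peptide YY (Pyy) was also higher, at 7.18, 8.09, 7.77 and 7.43 against 3.82 and 5.26, although it is best known from the distal intestine. Ghrelin (Ghrl), a stomach hormone, differed by -0.70 ± 0.40 and was not called (adjusted p = 0.3, limma). Cholecystokinin (Cck, -3.22 ± 0.56), glucagon (Gcg, -3.11 ± 0.48), secretin (Sct, -2.94 ± 0.49) and the tachykinin precursor Tac1 (-3.69 ± 0.45) were lower. Cck read 4.47, 5.04, 4.76 and 5.55 against 8.04 and 8.32. Of 23 endocrine genes 4 were higher and 6 lower, and without small intestinal array 2 the counts were 2 and 4. Tuft cell genes were called higher in 2 of 17 and lower in none, or 11.8% called against 12.1% of all genes. One of the 2 was the actin regulator Avil, highest in pyloric array 1 (7.31, 6.59, 6.57 and 6.44 against 4.85 and 4.73), and the other, Ltc4s of leukotriene synthesis, lost its call without pyloric array 1 (adjusted p = 0.0665, limma) or array 2 (adjusted p = 0.0552, limma) and without small intestinal array 1 (adjusted p = 0.199, limma) or array 2 (adjusted p = 0.113, limma).

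Ion and acid-base transport showed large differences in both directions, 6 higher and 8 lower of 22. Slc9a4, a sodium-proton exchanger of gastric epithelium, read 9.69, 9.65, 9.02 and 9.45 against 3.26 and 3.94, a difference of 5.85 ± 0.29. Car2, a cytosolic carbonic anhydrase, rose by 5.74 ± 0.29, and Slc26a9, a chloride channel of surface mucous cells, by 3.93 ± 0.30. The guanylin system, which regulates intestinal fluid, was lower throughout: the receptor Gucy2c read 3.39, 4.32, 3.56 and 4.03 against 7.84 and 8.70, its ligand uroguanylin (Guca2b) 4.49, 4.31, 5.28 and 4.93 against 9.74 and 10.62, and guanylin (Guca2a) differed by -3.92 ± 0.68. In the fit without small intestinal array 2, 5 genes of the list were higher and 4 lower.

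Most junction and water channel genes were not called, and the called ones went both ways. Cldn18, the claudin of the stomach's barrier, read 9.88, 9.82, 9.78 and 10.35 against 5.16 and 4.59, a difference of 5.08 ± 0.26. Cldn15, which forms cation pores in the intestine, read 4.60, 3.96, 4.65 and 4.13 against 8.43 and 9.05 (-4.40 ± 0.49), and Cldn3 fell by 3.66 on the log2 scale. These were among 1 higher and 3 lower of 19 claudins, around a median of 0.17. Of all genes, 4.6% were called higher and 7.54% lower, and 15 of the claudins were not called. Among 10 aquaporins, Aqp5 was the only one called higher, while Aqp4 (4.17, 2.96, 4.12 and 3.81 against 6.61 and 6.68) and Aqp11 (-2.01 ± 0.27) were lower. The other 7 aquaporins were not called.

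Called genes of mucin glycosylation were mostly higher in the pylorus. Of 22 glycosylation genes 9 were higher and 2 lower. Fut2, the secretor fucosyltransferase, read 8.99, 8.42, 8.24 and 8.79 against 3.90 and 3.64, a difference of 4.84 ± 0.25, and the branching enzyme Gcnt3 rose by 4.20 ± 0.41. B4galnt2, which makes the Sda antigen of intestinal mucins, fell, at 3.84, 3.61, 4.67 and 5.08 against 9.46 and 9.66. Of 19 glutathione and NADPH enzymes 6 were higher and none lower, while 13 were not called and the list's median was 0.02. The carbonyl reductase Cbr3 (8.56, 7.21, 8.65 and 8.09 against 3.36 and 4.25) and the glutathione transferase Gsta4 (11.45, 11.15, 11.62 and 11.41 against 6.64 and 8.19) were the largest rises in that list. Of 98 cytochrome P450 genes 3 were higher and 11 lower, around a median of 0.02. Of all genes, 4.6% were called higher and 7.54% lower. Of 19 endoplasmic reticulum genes 8 were higher and none lower, led by the mucous cell stress sensor Ern2 (2.82 ± 0.33), and 2 stayed called without small intestinal array 1 and 5 without array 2.

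Pancreatic acinar genes were called higher in 4 of 10 and lower in 0. Of all genes, 4.6% were called higher and 7.54% lower. Cela1, an elastase, read 12.13, 12.34, 11.56 and 12.52 against 6.52 and 5.53, a difference of 6.11 ± 0.37, and the trypsinogen Try4 rose by 1.73 ± 0.24. The count was 2 without small intestinal array 1 or array 2. Among the secreted host defence genes higher in the pylorus were the protease inhibitors Serpina3n (8.27, 8.57, 7.34 and 9.63 against 2.79 and 3.26) and Wfdc2 (2.35 ± 0.24), and the lung-associated chemokine Cxcl15 (2.96 ± 0.42). Reg4 was lower at 3.68, 4.15, 4.17 and 4.29 against 10.26 and 10.71, whereas Reg3g (-1.49 ± 0.76), a bactericidal lectin, was not called. This list of 20 held 3 higher and 2 lower, instead of 3 and 5, without small intestinal array 2.

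MHC class II genes were lower in 4 of 6 and higher in none, with a median of -2.09. H2-Ab1 read 4.79, 5.85, 4.82 and 6.36 against 9.30 and 9.86, a difference of -4.13 ± 0.50, and H2-Aa fell by 3.19 on the log2 scale. Ciita, the transactivator of these genes, was not called (0.20 ± 0.27). Immune cell genes were lower in 3 of 14, or 21.4% called against 12.1% of all genes. Gzma, the granzyme of cytotoxic lymphocytes, read 3.88 and 6.27 in small intestinal arrays 1 and 2, and its -1.78 became -0.58 without array 2 (adjusted p = 0.592, limma). Without array 2, 2 MHC class II genes and 1 immune gene stayed lower. None of 11 stromal genes was called by limma. Of 7 endothelial genes 1 was called higher, and of 8 squamous genes 1. These were 14.3% and 12.5% called, near the 12.1% of all genes.

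**Figure D5:**
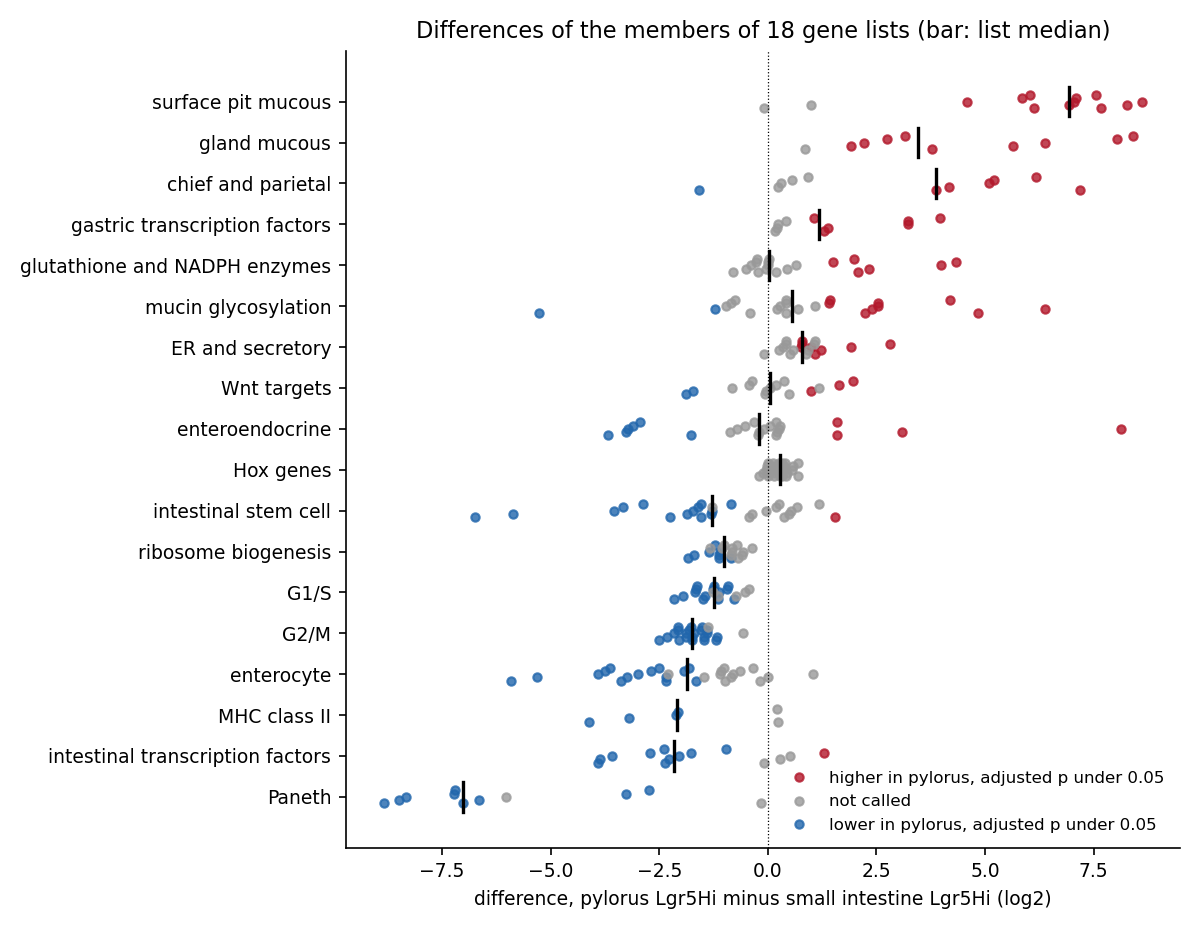
Difference between pyloric and small intestinal Lgr5-bright cells (log2, x axis) for each measured member of 18 gene lists, with black bars at the list medians; red and blue points are genes called higher and lower, grey points genes not called. Medians run from 6.92 for pit mucous genes to -7.02 for Paneth genes, and no gene of the G1/S or G2/M list is called higher.

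Many genes called in bright cells were also called in the dimmer gate, measured on other arrays of the same fit. Same-numbered bright and dim samples correlated weakly in their deviations, so the gates are not independent of each other. Among Lgr5-dim cells (4 pyloric and 2 small intestinal arrays) 1778 genes were called (8.02%), 808 higher (3.64%) and 970 lower (4.37%). Genes called higher in both gates numbered 477, which is 46.8% of the bright list and 59.0% of the dim list, and genes called lower in both numbered 632, or 37.8% and 65.2%. Of genes called higher in bright cells, 94.3% had the same sign in dim cells, and of genes called lower, 93.1%. The same share over all genes was not counted. The dim count fell to 860 without small intestinal dim array 1.

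A direct test of the gates found 7 genes (0.0316%) whose organ difference changed between bright and dim cells, upward in 6 (0.0271%) and downward in 1 (0.00451%), and 1607 at an unadjusted p under 0.05. Slc9a3, a sodium-proton exchanger of apical membranes, read 10.39, 10.65, 9.77 and 10.55 in pyloric and 4.06 and 5.71 in small intestinal bright cells, against 8.81, 9.05, 7.16 and 8.64, and 6.78 and 7.15 in dim cells. Its organ difference was thus 5.46 in bright and 1.45 in dim cells, a change of 4.01 ± 0.67 (adjusted p = 0.0311, limma). Cacna2d1, a calcium channel subunit, read 8.45, 8.86, 7.90 and 8.64 against 2.56 and 3.38 in bright cells, and differed by 5.49 there and 1.91 in dim cells (change 3.58 ± 0.49, adjusted p = 0.00354, limma). Rsph9, a radial spoke protein of motile cilia, differed by 4.13 and 1.55. In both, the pyloric bright arrays were the high ones.

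The nucleoside transporter Slc28a3 was called in opposite directions, at 6.45, 6.87, 5.99 and 6.87 against 4.44 and 5.38 in bright cells and 5.80, 5.03, 5.19 and 5.70 against 6.34 and 6.79 in dim cells. Its differences were 1.64 ± 0.31 and -1.13, a change of 2.77 ± 0.44 (adjusted p = 0.0208, limma), and the bright call was lost without small intestinal array 1 (1.16, adjusted p = 0.0946, limma). Cyp2e1, an ethanol-oxidising cytochrome, was highest in small intestinal bright cells, at 8.53 and 8.24 against 5.05 and 5.91 in small intestinal dim cells and 3.56 to 4.43 in the pylorus, a change of -2.94 ± 0.39. Afp, the fetal serum protein, and the fatty acid hydroxylase Cyp4f14 fell more in dim cells, by 6.14 against 2.42 and by 4.41 against 1.83 on the log2 scale. Same-numbered bright and dim samples of the pylorus correlated weakly in their deviations (r of 0.10 to 0.30). With organ and number as a random block 45 genes were called, with them as fixed blocks 8, and with the number alone as a fixed block 12. Without small intestinal bright array 1 the test called 0 genes by limma, and without array 2 it called 41, among them all 7. Without pyloric bright array 3 it called 25, without pyloric dim array 3 it called 20 and without pyloric bright array 2 it called 4.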

How the data were processed

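RNA of sorted mouse cells, amplified from at least 2 ng and biotin-labelled per the labels, was measured on Affymetrix arrays. The authors deposited log2 values per probe set; the submitters' processing notes name R 3.2.3, limma 3.26.8, RMA, oligo and Partek, without roles. No scanner files, detection calls or batch labels were used here, and the number of arrays limits the precision. Of 41345 probe sets, 23521 carry 1 gene symbol, 1814 several and 16010 none; the first were used, giving 22180 genes; 1082 of these had more than 1 probe set and were read from the brightest on average. No gene was filtered out for a low level. Groups came from the titles, which were followed for the DTR arrays.

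Differences were fitted with limma 3.58.1 in R 4.3.3 (1 mean for each of 6 groups, 18 arrays, eBayes) and called at a Benjamini-Hochberg adjusted p under 0.05; with 4 arrays against 2, exact permutation cannot reach 0.05. Genes named were Lgr5, Aqp5 and the 4 markers, the 15 largest called differences in each direction whose groups do not overlap, each list's key members and up to 6 others with the smallest p, and genes that changed between gates. The members and the 41 lists were chosen with earlier results of these data known. Deviations of same-numbered samples of the bright and dim pyloric gates correlated weakly (r of 0.16, 0.10, 0.27 and 0.30). Those of the small intestine gave 0.37, a single value, since with 2 arrays per group both numbers give the same r. Pyloric and small intestinal bright samples of the same number gave 0.01 and 0.09, the latter close to the lowest pyloric value. Alternatives were other sets of arrays in the fit, limma's trend and robust settings, quantile normalization, median centring, a filter on dim genes, other probe set choices, replicate blocks and leaving out each array; fixed organ and number blocks and list counts without each array were added after seeing the data. Promoters came from RefSeq, build GRCm38.p6; the array's own build is not given in the sources used here, so only gene order was used for neighbours.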

Additional observations from a re-analysis of the deposited data

Results flagged for a closer look

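In 9 of the 149 genes named, 1 pyloric bright array lay far from the other 3 by Dixon's test, which chance gives in about 1 of 20 groups. Array 3 was the one apart in 6 of them: it was low in Chad (10.02 against 10.99 to 11.08), Muc1 (10.25 against 10.89 to 10.99), Pga5 (7.58 against 9.36 to 9.49) and Cdk4 (7.19 against 7.99 to 8.10), and high in Cyp2e1 (4.43 against 3.60 to 3.62) and Tac1 (3.34 against 3.10 to 3.13). All these Tac1 levels, and the Cyp2e1 levels of the other 3 arrays, lay below the array medians of 3.88 to 4.10, so they are not evidence of expression. Array 4 was high in Gata4 (7.94 against 7.27 to 7.38) and low in Ciita (4.54 against 5.07 to 5.18), and array 1 was low in Sct (4.46 against 5.19 to 5.22).

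The organ difference changed between bright and dim cells, by the tested interaction, in 7 genes: Slc9a3 (4.01), Afp (3.72), Cacna2d1 (3.58), Slc28a3 (2.77), Cyp4f14 (2.58), Rsph9 (2.58) and Cyp2e1 (-2.94), on the log2 scale.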

How the results depend on the processing

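The count of called genes in bright cells (2692) stayed within 1.5 times in every setting that kept all 6 arrays. Its split varied more, with 1190 higher and 1339 lower after quantile normalization and 857 and 1860 after median centring. Leaving out 1 array gave 1168 to 2514 (409 to 1057 higher, 759 to 1486 lower), lowest without small intestinal array 1. For dim cells it gave 860 to 2110 (328 to 981 higher, 532 to 1129 lower), and all 42 arrays in the fit gave 2720 (1369 higher). The change between gates, 7 genes (6 higher, 1 lower), ranged from 0 to 41 with 1 array left out (0 to 36 higher, 0 to 13 lower). It had 2 lower with 25 arrays, with trend and robust settings, with quantile normalization, with the mean of probe sets and with fixed organ and number blocks, and 5 lower of 12 with dim genes removed. With 42 arrays it was 62 (37 and 25). With the replicate number as a fixed block it was 12 (4 lower), and with organ and number as a random block 45 (25 and 20). Of 130 called genes among 149 named, 123 kept their call in every setting with all arrays and 117 also without each array; none reversed. Calls lost in some setting with all arrays were those of Atoh1, Defa39, Esrrg, Gata5, Gzma, Ltc4s and Mmp7. With organ and number as a random block the bright count was 2684, and with the number as a fixed block 2827. Limits: 2 small intestinal arrays, no detection calls, bounded differences for genes near the array median, and probe sets shared by similar defensins.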

Other observations

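Values follow for signalling and structural genes not yet described. Among 20 BMP pathway genes 2 were higher and 1 lower, or 15% called, near the 12.1% of all genes. Id2, a target of BMP signals, read 7.78, 8.05, 7.72 and 7.68 in the pylorus against 6.37 and 6.23, a difference of 1.51 ± 0.29. Left without either small intestinal array the list held 1 and 1, and without pyloric array 3 it held 4 and 2. Among 18 Notch pathway genes 3 were lower and none higher, or 16.7% called. Nrarp, a Notch target that limits Notch signalling, read 4.32, 4.32, 4.19 and 4.92 against 5.86 and 5.90. Of 7 keratins 2 were called higher, 1 lower and 4 were not called, around a median of -0.30. The widest rise was that of Krt23, a type I keratin, which read 9.64, 9.95, 9.89 and 10.30 against 7.64 and 7.33. Of 20 genes of retinoid metabolism 2 were higher and 3 lower (0 and 3 without small intestinal array 1, 1 and 2 without array 2), and the widest difference was that of the retinol-binding protein Rbp7, which read 5.28, 3.24, 5.69 and 4.10 against 9.34 and 9.04. The Notch list held 1 gene lower without small intestinal array 2.

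The mean level of 10 immediate-early and heat shock genes varied within each organ. It was 6.37, 6.61, 6.49 and 7.94 in pyloric arrays 1 to 4 and 8.16 and 6.58 in the small intestinal arrays, so 1 array of each organ was high. Dim arrays of the same numbers were high too, pyloric dim array 4 at 7.08 against 6.26 to 6.49 and small intestinal dim array 1 at 8.25 against 6.67.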
